A study of Sus scrofa with 42 samples.

Results

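The calcium machinery that starts development in the egg was followed through the first cleavages of pig embryos by 10 genes, looked up by name in the gene expression table: ITPR1, ITPR2, TRPM7, CAMK2D, CAMK2G, PPP3CA, STIM1, ORAI1, ATP2A2 and CD9. Of these 10, 9 were found by name among the 15351 genes of the table. The row of PPP3CA carries only its identifier (ENSSSCG00000009172) and was named through the reference table of gene names, so that it is described with the calcineurin genes. The genes were chosen by their role and with measured levels in view, and TRPM7 was selected on the fall of its level over the stages, so the stage course of TRPM7 is a description without a test. The mean level of TRPM7 in parthenogenetic embryos was 10.8 FPKM at the 2-cell stage, 0.253 FPKM at the 4-cell stage and 23.4 FPKM in the single 8-cell embryo. In fertilized embryos it was 24.7 FPKM at the 1-cell stage and was lower at every later stage, down to 2.56 FPKM in the single 8-cell embryo, an order that changed with another scaling of the cells (given below).

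An egg waits in metaphase until its calcium rises. A fertilizing sperm brings in phospholipase C zeta, which makes inositol trisphosphate, and this opens the receptor channels of the endoplasmic reticulum (ITPR1, ITPR2) again and again. An electric pulse instead lets calcium in from the medium, usually as a single rise. Between spikes the SERCA pump (ATP2A2) refills the store, STIM1 senses an empty store and opens ORAI1 in the plasma membrane, and TRPM7, a channel joined to a kinase, carries calcium and magnesium. Calmodulin kinase II (CAMK2D and CAMK2G are subunits) and calcineurin (PPP3CA is a catalytic subunit) read the signal and lead to the exit from meiosis. CD9 is a tetraspanin of the egg surface that is needed for the fusion with sperm. Much of an early embryo's message is laid down in the egg before activation, and the levels below describe the stock of message after activation and not the calcium signal itself.

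The table held 42 single cells of Sus scrofa, 21 from in vitro fertilized (IVF) and 21 from parthenogenetically activated (PA) embryos. Oocytes from gilt ovaries were matured in vitro and then either incubated with sperm in the presence of caffeine (IVF) or given electric pulses followed by 6-dimethylaminopurine and cytochalasin B (PA). Both were then cultured in the same porcine zygote medium, and MII oocytes were not analysed here. Each method had 3 cells at the 1-cell, 6 at the 2-cell, 9 at the 4-cell and 3 at the 8-cell stage, taken 19, 27, 48 and 72 h after the end of the sperm incubation or after the pulse. The methods thus differ in the trigger, in the drugs that follow it and in the paternal genome, and the parts of these cannot be told apart.

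The cells came from 3 embryos per group up to the 4-cell stage and from 1 embryo in each 8-cell group. Embryos (20 in all) were the replicates, and an embryo's value was the mean over its blastomeres. Levels are FPKM, fragments per kilobase of gene scaled to the mapped fragments of the cell, so that genes can be compared with each other on this scale. Reads on genes, recovered from the steps of the FPKM, numbered from 4324844 to 14985736 per cell with a median of 10212522. They are amplified reads without molecular identifiers, and intervals from counting would cover counting error only. Median depths by stage in IVF cells were 12361101, 11644912, 9318581 and 8469112 reads. In PA cells they were 13628622, 12129602, 7015964 and 10381922 reads. The share of FPKM on mitochondrial genes, which is taken from all other genes, had medians of 17.1%, 28.9%, 43.7% and 52.3% by stage in IVF cells and of 13.2%, 16.6%, 25.2% and 45.5% in PA cells. Without the 2 PA 4-cell libraries described next, the PA 4-cell median was 59.3%.

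A pair of PA 4-cell libraries stood apart. PA 4-cell-1-4 (embryo 1, blastomere 4) nearly repeated PA 2-cell-1-2, and PA 4-cell-2-1 nearly repeated PA 2-cell-2-1, with Pearson's r of log2 values of 0.9985 and 0.9988 across genes. The highest r among the other 859 pairs of cells was 0.9079. Member levels of PA 4-cell embryos that moved by over 1.5 times without these 2 libraries, and calls that changed, are given both ways. As a check of the labelled cells, BMP15, a growth factor made by oocytes, averaged 103 to 166 FPKM in the 1-, 2- and 4-cell groups of both methods, and 0.357 and 4.47 FPKM in the IVF and PA 8-cell embryos.

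Among 10 listed oocyte markers, 9 were in the table, and their sum per cell had medians of 227, 304, 470 and 22.8 FPKM by stage in IVF cells and of 370, 268, 307 and 59.4 FPKM in PA cells. At the 8-cell stage ZP3, ZAR1, OOEP and FIGLA, the last of which was low or at 0 at all stages, were listed at 0 in every cell of both methods. Others were still found there. ZP4 averaged 65.2 FPKM in the IVF 8-cell embryo and 0.13 FPKM in the PA one, ZP2 0.379 and 29.2 FPKM, and GDF9 7.74 and 12.5 FPKM. In 1-cell embryos the IVF and PA means were 69.8 and 178 FPKM of ZP4, 6.36 and 17.1 FPKM of ZP2 and 31.5 and 27.4 FPKM of GDF9. Of 10 markers of cumulus and granulosa cells, 6 were in the table, and they summed to at most 32.3 FPKM in any cell, with the largest group mean being 9.22 FPKM of STAR (IVF 1-cell). Of 12 sperm markers, 4 were in the table, and the largest group mean in IVF cells was 0.328 FPKM of PLCZ1 at the 1-cell stage.

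The members lie on 6 chromosomes of Sscrofa11.1. ITPR1 (chr13:61067774-61397655, plus strand), TRPM7 (chr1:121145857-121250211, plus), ATP2A2 (chr14:31674654-31744978, plus) and ORAI1 (chr14:31011896-31028223, minus) were among the tested genes. So were CAMK2D (chr8:108916356-109221311, plus) and CAMK2G (chr14:76534755-76592909, minus). ITPR2 (chr5:46935923-47464125, plus), STIM1 (chr9:6065353-6270533, minus) and CD9 (chr5:64420179-64459820, minus) stayed below the filter of at least 1 FPKM in at least 3 cells, which 6 of the 9 members and 8116 of all genes passed. A member could pass through its highest group alone, and the 6 are not a sample of the pathway.

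Maternal messages are held and released through short elements near their 3′ ends, such as the cytoplasmic polyadenylation element, TTTTAT in DNA letters. RefSeq's models on Sscrofa11.1 were searched on the sense strand for this element in the last 300 bases of the 3′ untranslated region. It was found in ITPR1, TRPM7 and ATP2A2 of the members searched, and in 29.5% of 13682 genes. CD9 held TGTANATA, the letters of the Pumilio element, which 9.65% of the genes held, and ORAI1 was not searched because its annotated region was too short. These windows of 30 bases are shown because they are the members' matches, all within the 3′ untranslated region of RefSeq's model, with the element in capitals. That of ITPR1 lies beyond the end of the gene in the annotation used for the positions above. A match is a description of letters and says nothing about binding.
ITPR1, chr13:61398741-61398770, plus strand: atgaaaggaaacTTTTATatctgttgccta
TRPM7, chr1:121249947-121249976, plus strand: atctctctgaagTTTTATgctttgattttt
ATP2A2, chr14:31741663-31741692, plus strand: atgtctaatgtaTTTTATtgtaacagacat
CD9, chr5:64420278-64420307, minus strand: acaaaagatatTGTATATAaagagtttttt

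TRPM7 was the only member with reads in all 42 cells, and it reached 1 FPKM in 30 of them. The IVF 1-cell embryos held 9.95, 28.6 and 35.7 FPKM (24.7 ± 13.3, mean ± SD, n = 3). The 2-cell embryos held 7.64, 12.3 and 21.4 FPKM (13.8 ± 7.0, n = 3). The 4-cell embryos held 4.95, 8.21 and 12.4 FPKM (8.53 ± 3.74, n = 3). In IVF the 1- and 2-cell and the 2- and 4-cell embryos overlapped, and the lowest 1-cell embryo lay within the range of the 4-cell embryos. The 3 blastomeres of the IVF 8-cell embryo held 0.0266, 5.67 and 2.00 FPKM, and their mean lay below every 4-cell embryo.

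The PA embryos followed another course for this channel. The 1-cell embryos held 20.4, 9.81 and 13.6 FPKM (14.6 ± 5.34, n = 3), and the 2-cell embryos held 7.05, 10.5 and 14.7 FPKM (10.8 ± 3.84, n = 3). All 9 PA 4-cell blastomeres lay between 0.0184 and 1.36 FPKM, and their embryos at 0.037, 0.310 and 0.411 FPKM (0.253 ± 0.194, n = 3). The embryos lay below every 2-cell embryo, which also held for 8.29% of all tested genes. The 2 highest of these 9 cells, with 1.36 and 0.546 FPKM, were the libraries that repeat 2-cell blastomeres. Without them the mean was 0.0688 ± 0.0295 FPKM. The PA 8-cell blastomeres held 0.498, 23.8 and 46.0 FPKM, so that 2 of 3 lay above every PA 4-cell value and 1 among them.

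**Figure D1:**
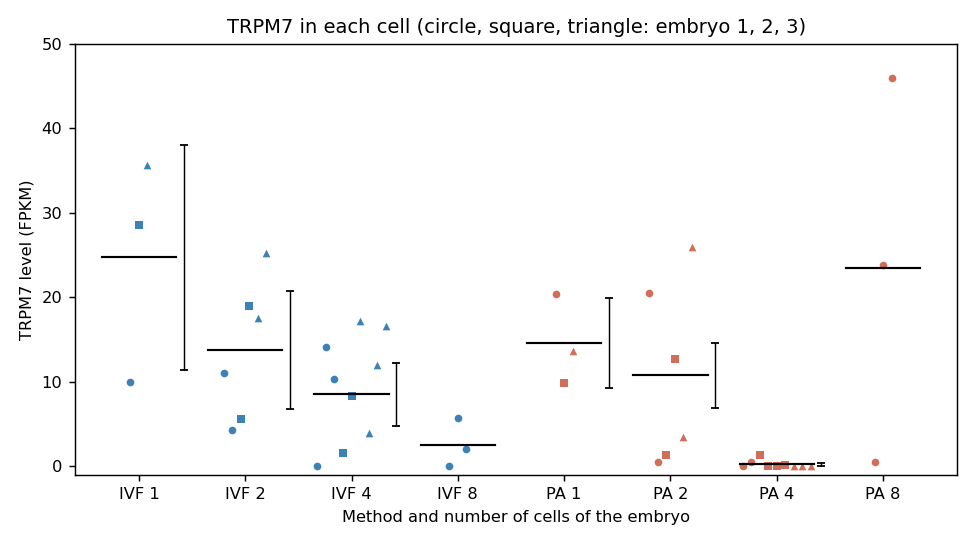
TRPM7 level (FPKM, linear axis) of each of the 42 cells, by method and number of cells of the embryo, with IVF in blue and PA in red. Circles, squares and triangles are embryos 1, 2 and 3, horizontal lines are means over embryos and bars are SD over 3 embryos. All 9 PA 4-cell blastomeres lie between 0.0184 and 1.36 FPKM, while 8 of the 9 IVF 4-cell blastomeres lie above 1.36 FPKM.

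On the log2(FPKM + 1) scale, on which fold changes of low values are understated, the difference of TRPM7 between PA 4-cell and 2-cell embryos was -3.19 (SE 0.66), and -3.41 without the 2 repeating libraries. Leaving out instead their 2-cell partners, whose TRPM7 levels of 0.462 and 1.38 FPKM are low for the 2-cell stage, gave -3.75. From the PA 4-cell to the 8-cell stage the difference was 4.30 (SE 0.93). The IVF differences were -0.73 from the 1- to the 2-cell, -0.60 from the 2- to the 4-cell and -1.34 from the 4- to the 8-cell stage. These are descriptions of values that the choice of the gene used, and no p is attached.

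The IVF step from the 2- to the 4-cell stage turned to 0.68 when cells were scaled by their median ratio over nuclear genes, while the PA step remained lower (-2.06). That scaling moved the median of all tested genes in the IVF step from -0.23 to 0.18 and in the PA step from -0.17 to 0.12. On it the IVF means of TRPM7 were 6.30, 4.26, 9.42 and 4.81 by stage, and its IVF 4- to 8-cell step was -0.48 instead of -1.34. IVF 8-cell against 1-cell was -2.68, and between -3.21 and -0.24 under the alternatives. Small differences of TRPM7 changed sign elsewhere too. PA 8-cell against 1-cell was 0.70, and -0.32 when log2 values were averaged over blastomeres, with 3.48 as its highest value under the alternatives. PA 2-cell against 1-cell was -0.41, and 0.15 without PA 2-cell-1-2 and 2-1.

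Set side by side at the 4-cell stage, IVF embryos held 8.53 FPKM and PA embryos 0.253 FPKM of TRPM7, a log2 difference of 2.86 (SE 0.66), or 3.08 without the 2 libraries. The embryos did not overlap, as was so with IVF higher for 9.65% of all tested genes. IVF 4-cell blastomeres were uneven themselves, from 0.0822 to 17.2 FPKM with a median of 10.4, and 1 of them (IVF 4-cell-1-1) lay among the PA cells. At the 1- and 2-cell stages the embryos of the methods overlapped, with log2 differences of 0.60 and 0.27, the latter turning to -0.28 without PA 2-cell-1-2 and 2-1 and to -0.19 under median-ratio scaling. From the 4- to the 8-cell stage IVF and PA moved in opposite directions, by a log2 difference of -5.64 (SE 1.31), or -5.86 without the 2 libraries, not tested and resting on 1 embryo a method. TRPM6 (chr1:227811237-227998593, minus strand), the closest relative of TRPM7 and also a magnesium and calcium channel with a kinase, had group means up to the 4-cell stage of 4.83, 2.49 and 4.59 FPKM in IVF. Its PA means were 4.43 ± 2.02, 7.24 ± 12.5 and 22.9 ± 22.3 FPKM (SD, n = 3 embryos each). The PA 2-cell embryos held 0.0308, 0.0376 and 21.6 FPKM of it, and the PA 4-cell embryos 0.314, 23.6 and 44.9 FPKM. In the 8-cell embryos TRPM6 stood at 40.3 FPKM in IVF, all from 1 blastomere with 121 FPKM, and at 1.5 FPKM in PA.

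The 4 genes whose level was most like that of TRPM7 over the 20 embryos were WDR47, PAFAH1B2, DNAJC21 and HOOK1. Pearson's r of their log2 levels with TRPM7 lay between 0.824 for WDR47 and 0.789 for HOOK1, as a description over embryos that share stage and method. HOOK1, an adaptor of microtubule motors, shared the low PA 4-cell level, with 9.71 FPKM at the PA 2-cell stage, 0.0503 FPKM at the 4-cell and 4.99 FPKM at the 8-cell stage. DNAJC21, a chaperone of ribosome assembly, went from 74.8 to 4.10 and 135 FPKM over the same stages, and from 90.4 to 72.8 and 0.204 FPKM in IVF.

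The release channels among the members, ITPR1 and ITPR2, were low. ITPR1, the main inositol trisphosphate receptor of eggs, had mean levels of 2.02 ± 0.783 FPKM at the IVF 1-cell, 1.86 ± 2.07 at the 2-cell and 0.207 ± 0.346 at the 4-cell stage (SD, n = 3 embryos each), and 0.0042 FPKM in the 8-cell embryo. Of 9 IVF 4-cell blastomeres, 1 (IVF 4-cell-3-3) held 2.40 FPKM and the other 8 at most 0.0204 FPKM. In PA the means were 0.991 ± 0.815, 1.01 ± 1.29 and 0.868 ± 1.21 FPKM, and ITPR1 was listed at 0 in all 3 cells of the 8-cell embryo. The PA 4-cell mean came from the 2 repeating libraries (4.5 and 1.37 FPKM), and without them it was 0.0055 ± 0.004 FPKM. Their 2-cell partners likewise held 4.93 and 1.14 FPKM, and the other 4 PA 2-cell blastomeres at most 0.0075 FPKM. No step of ITPR1 within either method was called, and its largest step between neighbouring stages was -0.99 (SE 0.68) from the IVF 2- to the 4-cell stage, with an adjusted p of 0.458 by limma.

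ITPR2, a second receptor of this family, reached 1 FPKM in 1 of 42 cells only. This was IVF 2-cell-3-1 with 2.28 FPKM (615 reads), while it had reads in 15 cells in all. Genes like ITPR1 over embryos were GRHL2 (r = 0.852) and ASPA (r = 0.848), which stood at no more than 0.24 FPKM in either 8-cell embryo.

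Of STIM1 and ORAI1, the pair that lets calcium in when the store is empty, the channel ORAI1 was found and STIM1 hardly. STIM1 had reads in 4 of 42 cells and at most 0.0531 FPKM. These were all 3 PA 1-cell embryos, with 5, 7 and 9 reads, and 1 IVF 2-cell blastomere with 1 read. STIM2, one of the other calcium entry genes described below, averaged 0.850 and 2.31 FPKM in IVF 1- and 2-cell embryos. In every other group its mean was at most 0.144 FPKM. ORAI1 had reads in 21 cells. In IVF the 2-cell embryos held 0.931, 4.25 and 4.56 FPKM of ORAI1 (3.25 ± 2.01, n = 3), and the 4-cell embryos 0, 0.0444 and 0.378 FPKM (0.141 ± 0.207, n = 3). The embryos of these stages did not overlap, as was the case with a lower 4-cell level for 14.3% of all tested genes. The log2 difference was -1.76 (SE 0.77) with a limma p of 0.0330 and an adjusted p of 0.237, so ORAI1 was not called. It was called with blastomeres as samples and the embryo as a random effect (log2 difference -1.59, adjusted p = 0.0284).

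Across methods ORAI1 was uneven. The IVF 1-cell mean was 1.65 ± 1.94 FPKM and the PA 1-cell mean 2.79 ± 3.84 FPKM, where a single zygote held 7.17 FPKM. PA 2-cell embryos held 0.342 ± 0.546 FPKM and PA 4-cell embryos 0.674 ± 1.13 FPKM, the latter from 1 blastomere (PA 4-cell-2-4) with 7.75 FPKM. At the 2-cell stage IVF was above PA by 1.59 on the log2 scale (SE 0.77), but the embryos overlapped and the adjusted p was 0.903 by limma. ORAI1 was listed at 0 in all PA 8-cell blastomeres and averaged 0.0242 FPKM in the IVF 8-cell embryo.

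ATP2A2, the pump that returns calcium to the store, was the most abundant member after TRPM7 in IVF 1-cell embryos. They held 6.35, 20.5 and 16.7 FPKM (14.5 ± 7.32, n = 3), and the means were 11.6 ± 5.63 FPKM at the 2-cell and 6.85 ± 6.57 FPKM at the 4-cell stage. The IVF 8-cell blastomeres held 0.0128, 0.0291 and 0.0272 FPKM, which were 1, 6 and 5 reads. Their mean of 0.023 FPKM lay below every IVF 1-cell embryo, as was so for 52.4% of all tested genes. Between the IVF 8-cell and 1-cell stages the log2 difference was -3.78 (SE 1.2) with an adjusted p of 0.0407 by limma. ATP2A2 was the only one of 5 members tested that was called in this comparison, in which 14.3% of all tested genes were called and 8.23% were called lower. With 1 embryo at the 8-cell stage, that embryo was assumed to vary like those of the other groups.

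This call for ATP2A2 held in 7 of 15 other ways of processing, with adjusted p between 0.00433 and 0.390 by limma, and was lost without the 2 repeating libraries (0.0644) and under median-ratio scaling (log2 difference -2.09). It was also lost without IVF 1-cell embryo 2 (0.101) or embryo 3 (0.0894). In PA the levels of ATP2A2 were 9.59 ± 6.83, 10.4 ± 7.35 and 7.47 ± 8.01 FPKM (n = 3 embryos each) up to the 4-cell stage. The PA 8-cell blastomeres held 1.83, 0.0202 and 0 FPKM, a mean of 0.616 FPKM. PA 8-cell against 1-cell had a log2 difference of -2.51 (SE 1.2, adjusted p = 0.189 by limma), which turned to 0.77 under median-ratio scaling. Within the 4-cell stage ATP2A2 split the blastomeres of both methods. In IVF, 4 of 9 held at most 0.448 FPKM and 5 held 3.64 to 15.1 FPKM, and in PA, 4 of 9 held at most 0.0383 FPKM and 5, the 2 repeating libraries among them, held 3.36 to 22.3 FPKM.

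**Figure D2:**
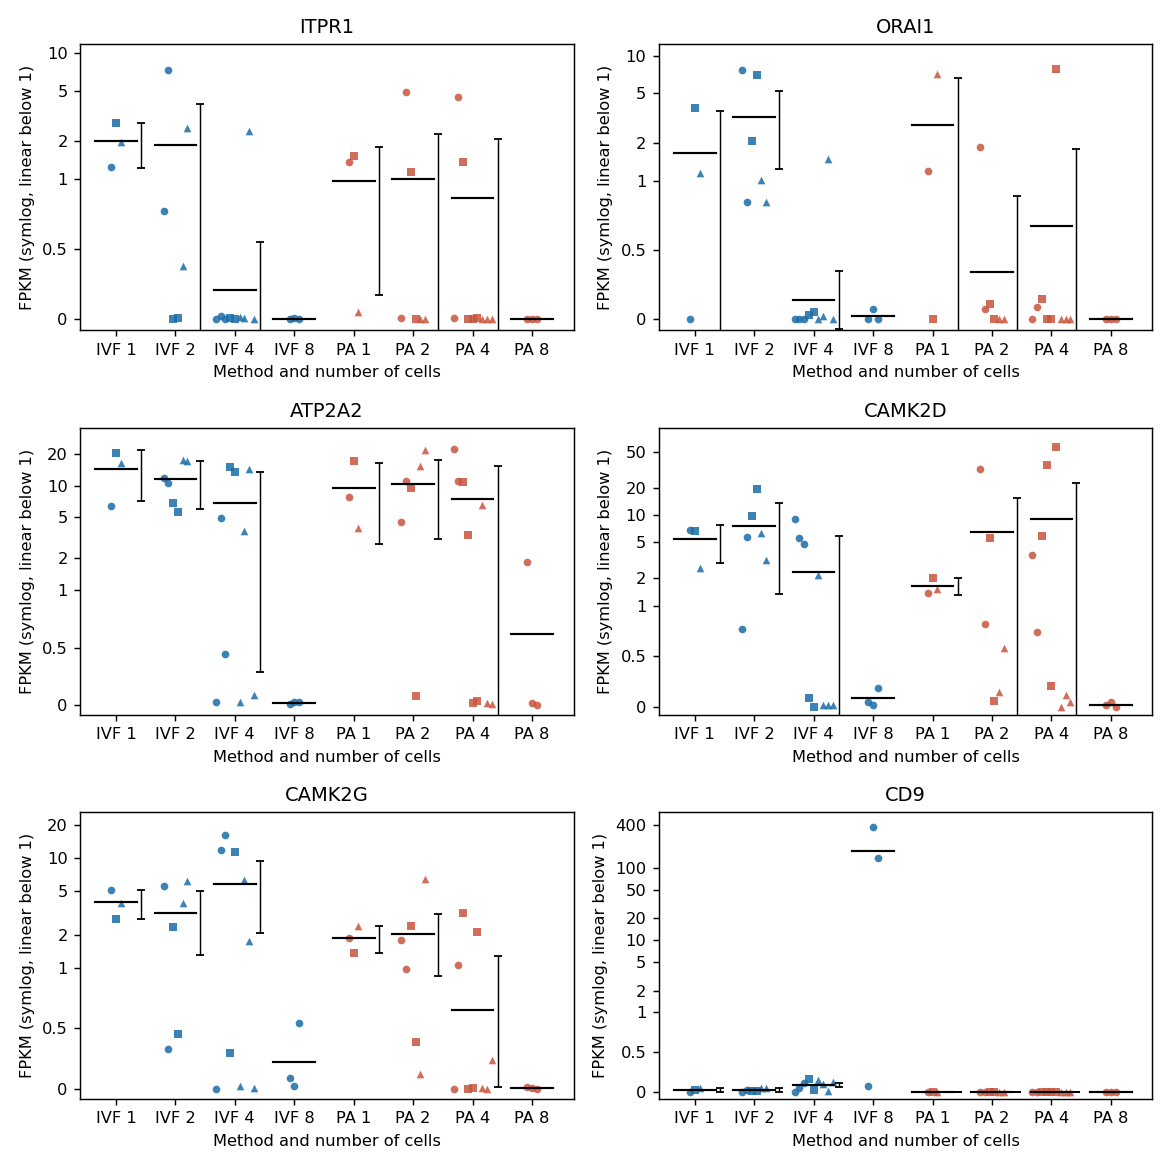
FPKM of 6 other calcium signalling genes in each of the 42 cells, by method (IVF blue, PA red) and number of cells, on an axis that is linear below 1 and logarithmic above. Circles, squares and triangles are embryos 1, 2 and 3, horizontal lines are means over embryos and bars are SD over 3 embryos, running out of the panel where they reach below 0. CD9 stands at 371 and 138 FPKM in 2 IVF 8-cell blastomeres and near 0 in all other cells.

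The kinase subunits were present in both methods. CAMK2G, the subunit that carries the calcium signal to meiotic exit in mouse eggs, averaged 3.96 ± 1.18, 3.14 ± 1.83 and 5.77 ± 3.69 FPKM up to the IVF 4-cell stage and 1.88 ± 0.505, 2.03 ± 1.09 and 0.648 ± 0.628 FPKM in PA (n = 3 embryos each). Without the 2 repeating libraries the PA 4-cell mean of CAMK2G was 0.265 ± 0.387 FPKM. At the 4-cell stage the embryos of the methods did not overlap, as was so with IVF higher for 9.65% of all tested genes, and IVF was above PA by 1.94 on the log2 scale (SE 0.70). The adjusted p was 0.208 by limma, and 0.0665 with a log2 difference of 2.29 without the 2 repeating libraries. CAMK2G was called in none of 18 other ways of processing. IVF 4-cell blastomeres spread from 0 to 16.5 FPKM of CAMK2G, and PA ones from 0 to 3.18 FPKM. In the 8-cell embryos CAMK2G was at 0.220 FPKM in IVF and 0.0107 FPKM in PA. The IVF difference from the 4- to the 8-cell stage was -2.30 (SE 0.99, adjusted p = 0.199 by limma).

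CAMK2D, the other subunit measured, was more uneven. Its IVF means were 5.37 ± 2.42, 7.53 ± 6.18 and 2.35 ± 3.56 FPKM up to the 4-cell stage, and its PA means 1.65 ± 0.352, 6.57 ± 8.73 and 8.96 ± 13.6 FPKM (n = 3 embryos each). The 2 highest levels of CAMK2D in any cell, 56.6 and 35.8 FPKM, were in PA 4-cell-2-4 and PA 4-cell-2-2, sisters of the same embryo, in which PA 4-cell-2-3 held 0.205 FPKM. At the 8-cell stage CAMK2D was at 0.0816 FPKM in IVF and 0.0181 FPKM in PA. At the 1-cell stage IVF embryos did not overlap with PA embryos in either subunit, with log2 differences of 1.19 (SE 1.11) for CAMK2D and 0.77 (SE 0.70) for CAMK2G. Both had an adjusted p of 1 by limma, and 14.1% of all tested genes did not overlap with IVF higher in this comparison.

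Genes whose level followed CAMK2G over the 20 embryos were PPP2R5E (r = 0.911), a regulatory subunit of protein phosphatase 2A, and SNX12 (r = 0.866), a sorting nexin. PPP2R5E likewise stood at 15.8 FPKM in IVF and 1.10 FPKM in PA 4-cell embryos. For CAMK2D the closest were CCL22 (r = 0.851) and L3MBTL3 (r = 0.83). For ORAI1 they were DPAGT1 (r = 0.822) and ENSSSCG00000040482 (r = 0.814), and for ATP2A2 USP38 (r = 0.861) and NLRP13 (r = 0.835). These values describe the embryos, which share stage, method and depth. Without the 2 repeating libraries, r lay between 0.760 (L3MBTL3) and 0.935 (PPP2R5E) for the genes named with the members.

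CD9, the fusion protein of the egg surface, was almost absent from the early stages. It had at most 4 reads in any IVF cell outside the 8-cell stage and was listed at 0 in all 21 PA cells. In the IVF 8-cell embryo, blastomere 2 held 371 FPKM (12190 reads) and blastomere 3 held 138 FPKM (4044 reads), while blastomere 1 held 0.0803 FPKM (1 read). The mean of 169.8 FPKM was the highest of any member in any group and rested on 1 embryo. CD9 was not tested because only these 2 cells reached 1 FPKM. IZUMO1R, the egg's receptor for the sperm protein IZUMO1, stood at 2.34, 3.52 and 5.95 FPKM up to the IVF 4-cell stage. The PA levels were 3.00, 2.67 and 8.26 FPKM. It was 0 and 0.0129 FPKM in the IVF and PA 8-cell embryos.

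**Figure D3:**
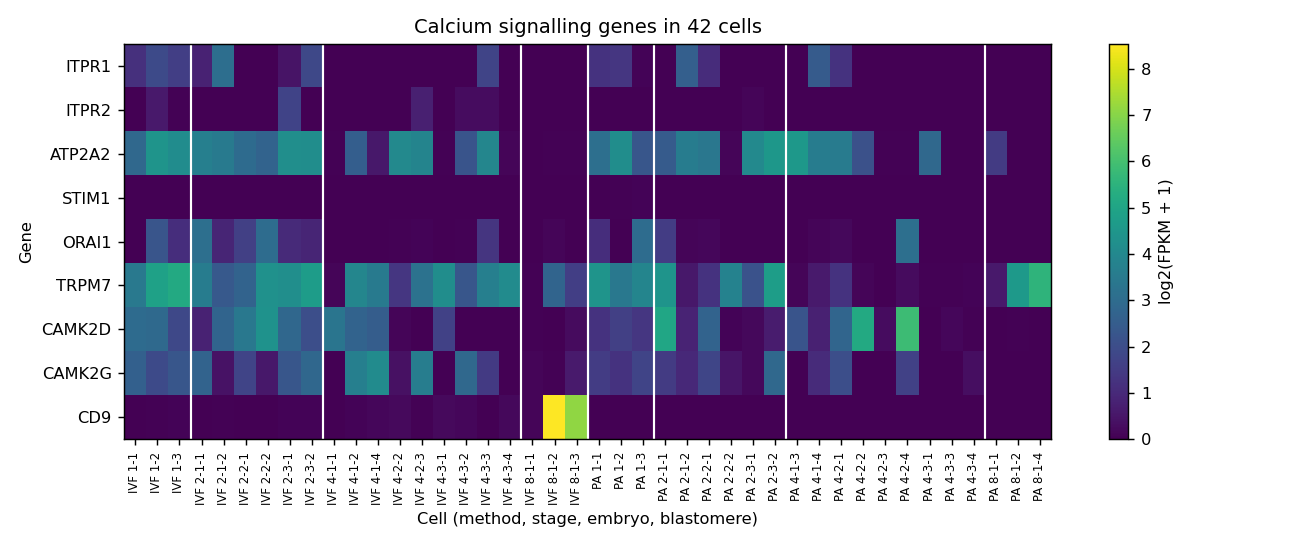
Levels of the 9 genes found by name in each of the 42 cells as log2(FPKM + 1), with genes in rows and cells in columns ordered by method, stage, embryo and blastomere. White lines part the 8 groups. ATP2A2, TRPM7 and the kinase subunits are above 0 in all 1-cell columns and uneven between cells from the 2-cell stage on, and CD9 is bright in 2 IVF 8-cell columns alone.

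Sister blastomeres differed in these messages by amounts that varied with the gene. Each blastomere had 1 library, so message lost in amplification and a true difference between sisters cannot be told apart. In the 14 embryos with sisters, the median log2 difference between the highest and the lowest sister was 1.88 for TRPM7, 1.25 for CAMK2G, 1.04 for ATP2A2 and 0.868 for CAMK2D. The median over all tested genes was 0.715. For ITPR1 and ORAI1, which were near 0 in many embryos, it was 0.564 and 0.125. Without the 2 repeating libraries, which left 13 embryos with sisters, the median was 0.018 for ITPR1 and 0.572 over all tested genes. Among these 6 genes the largest sister differences were 5.58 for CAMK2D and 4.97 for TRPM7, and CD9 reached 8.43 in the IVF 8-cell embryo. Embryos with one sister at or above 1 FPKM and another below it numbered 10 for CAMK2G, 7 for ITPR1, 6 for ATP2A2, 6 for CAMK2D, 5 for TRPM7 and 5 for ORAI1. Without the 2 repeating libraries these were 9, 5, 6, 5, 4 and 5 embryos. The share over all tested genes is not given, so these counts describe the members only.

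Counted per cell, fewer of the 6 tested members reached 1 FPKM at later stages. The medians were 6, 4.5, 3 and 1 members by stage in IVF and 5, 2.5, 2 and 1 in PA, where the 4-cell median was 1 without the 2 repeating libraries. The number of all genes at 1 FPKM or above was lower as well, with medians of 5759, 4596, 2926 and 2047 in IVF and 4830, 3266, 1739 and 1791 in PA. In the IVF 8-cell embryo the single member at 1 FPKM or above in 2 cells was TRPM7, and 1 cell had none. Of the PA 8-cell cells, 1 held ATP2A2 and 2 held TRPM7.

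Tested over all genes by limma, no member was called in any comparison of IVF with PA, whether at the 1-cell (0.0493% of all tested genes called), 2-cell (0%) or 4-cell stage (0.554%, and 4.07% without the 2 repeating libraries). TRPM7 passed the thresholds at the 4-cell stage without these libraries, which is no support for it since its PA 4-cell level was part of its choice. At an unadjusted p under 0.05 the count was 0, 0 and 1 (CAMK2G) of the 5 members other than TRPM7, against 4.09%, 5.43% and 14.0% of all tested genes. The median log2 difference of IVF over PA of these 5 members was 0.67 (ITPR1), 0.41 (CAMK2G) and -0.37 (ORAI1) at the 3 stages. It was 0.24, 0.25 and 0.23 over all tested genes. Without the 2 repeating libraries the 4-cell median was 0.19 (ATP2A2) for the 5 members and 0.58 over all tested genes. At these group sizes the SE of a member's difference was 0.66 to 1.11 on the log2 scale. The missing calls do not show equal levels. At the 8-cell stage, with 1 embryo a method, IVF and PA were set side by side without a test, above.

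**Figure D4:**
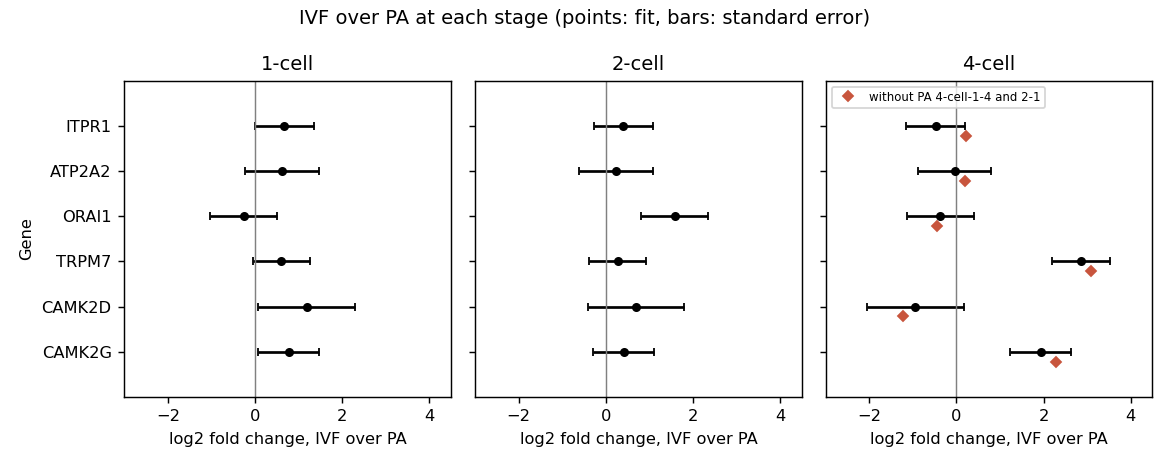
Log2 fold change of IVF over PA of the 6 tested calcium signalling genes at the 1-, 2- and 4-cell stage, on log2(FPKM + 1) of embryo means (n = 3 embryos each). Black points are the values with all libraries, bars are standard errors, and red diamonds leave out PA 4-cell-1-4 and 2-1. TRPM7 (2.86) and CAMK2G (1.94) lie farthest above 0 at the 4-cell stage.

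Within the methods the 5 members other than TRPM7 gave no call between neighbouring stages. All genes tested gave 0% (IVF) and 0.0986% (PA) calls from the 1- to the 2-cell stage, 1.11% and 0.394% from the 2- to the 4-cell stage and 6.97% and 9.99% from the 4- to the 8-cell stage. Without the 2 repeating libraries, the PA share from the 2- to the 4-cell stage was 7.41%. At an unadjusted p under 0.05 these counts were 0, 1 (ORAI1) and 2 (CAMK2G and ATP2A2) of 5 members in IVF, against 2.66%, 17.6% and 19.4% of all tested genes. In PA they were 0 at each step, against 4.85%, 10.8% and 20.7%. From the 1- to the 8-cell stage, the members' median was -2.0 in IVF and -1.39 in PA, beside -0.77 and -0.58 over all tested genes, of which 14.3% and 13.8% were called. Median-ratio scaling moved these medians of all genes to -0.06 and -0.10. The members' medians above are for the main scaling only. Under median-ratio scaling the IVF 1-cell means of ITPR1, CAMK2D, CAMK2G, ORAI1 and ATP2A2 were 0.524, 1.49, 1.10, 0.399 and 3.70. In the IVF 8-cell embryo they were 0.0054, 0.283, 0.774, 0.0308 and 0.0612. In PA they were 0.364, 0.598, 0.686, 1.01 and 3.45 at the 1-cell stage and 0, 0.140, 0.0933, 0 and 5.90 in the 8-cell embryo. None of these 5 members was called by the interaction test of IVF and PA in a step between stages, in which 0%, 0% and 2.86% of all tested genes were called.

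Beyond the members, 84 other genes of calcium release, entry, buffering, calmodulin kinases, calcineurin, protein kinase C, the egg surface and meiotic exit were in the table, and 44 of them were tested. None was called between methods at a single stage, nor at the steps up to the 4-cell stage in either method. Without the 2 repeating libraries PPP3R1 and MOS were called lower from the PA 2- to the 4-cell stage, and PPP3R1 and FBXO43 higher in IVF than in PA 4-cell embryos, in which 7.41% and 4.07% of all tested genes were called. PRKCQ in IVF and PPP3CA in PA passed the filter on low values only through their 8-cell cells, so they are described without a test and left out of these counts and shares, as are all genes of that kind. From the IVF 4- to the 8-cell stage 1 of 43 genes was called higher and 3 lower (9.3%, beside 6.09% of all such genes), and from the PA 4- to the 8-cell stage 1 higher and 4 lower (11.6%, beside 9.16%). From the 1- to the 8-cell stage 1 was higher and 6 lower in each method (16.3%, beside 13.4% in IVF and 13% in PA). All of these tests set 1 embryo at the 8-cell stage against 3, and that embryo was assumed to vary like those of the other groups.

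Of 6 genes of meiotic arrest and exit, 5 were tested, and 3 of them (WEE2, FBXO43 and MOS) fell from the 1- to the 8-cell stage in both methods, in which 8.23% (IVF) and 6.21% (PA) of all tested genes were called lower. WEE2, the egg kinase that holds CDK1 inactive, fell by 7.09 on the log2 scale from the IVF 4- to the 8-cell stage (SE 0.69, adjusted p = 2.44e-06 by limma), from a mean of 232 to 0.697 FPKM. FBXO43 (EMI2), the inhibitor of the anaphase-promoting complex that calmodulin kinase II marks for destruction, fell by 5.76 (SE 0.97, adjusted p = 0.000767 by limma), from 87.9 to 0.279 FPKM. With only the IVF 4- and 8-cell groups in the fit, neither was called at this step (adjusted p = 0.0955 for WEE2 and 0.331 for FBXO43 by limma). In PA these steps were -4.33 for WEE2 and -4.04 for FBXO43 (adjusted p = 0.000407 and 0.0108 by limma), but -2.55 and -2.59 without the 2 repeating libraries, with adjusted p of 0.363 and 0.245. MOS, the kinase that sustains metaphase arrest, fell from the 1- to the 8-cell stage, with log2 differences of -4.61 in IVF and -4.89 in PA (adjusted p = 0.0343 and 0.0270 by limma). Its call was lost in 7 of 15 other ways of processing in IVF (adjusted p up to 0.137) and in 5 of 15 in PA (up to 0.0773). Of 8 oocyte markers tested, 1 (BMP15) fell from the 4- to the 8-cell stage in IVF and 2 (BMP15 and ZP4) in PA, and none was called higher. At this step 6.97% (IVF) and 9.99% (PA) of all tested genes were called in either direction. The log2 differences of BMP15 were -6.54 in IVF and -4.61 in PA (adjusted p = 4.88e-06 and 0.000237 by limma). In each method its call was lost in 1 of 15 other ways of processing. Whether these falls share a course beyond their stage was not tested.

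Among calcineurin genes, PPP3CA, a catalytic subunit (chr8:119429974-119754650, plus strand), reached 1 FPKM in 4 of 42 cells. The PA 8-cell blastomeres held 3.71, 54.6 and 0 FPKM, so 1 of 3 cells gave most of it, beside a mean of 0.017 FPKM in PA 4-cell embryos, and the gene stood at 0.759 ± 0.840 FPKM in IVF 4-cell embryos. Its highest value there was 4.98 FPKM in IVF 4-cell-1-2. It overlaps ENSSSCG00000035088 on the other strand, whose reads were 0 in all 8-cell cells. PPP3CB, another catalytic subunit, reached 1 FPKM in 13 cells and averaged 4.68, 8.85, 1.69 and 0.0129 FPKM by stage in IVF. In PA it averaged 1.90, 4.04, 0.0216 and 0.0073 FPKM. PPP3R1, the regulatory subunit (chr3:74004615-74068172, plus strand, overlapping PNO1), fell from the IVF 4- to the 8-cell stage by 4.05 (SE 1.17, adjusted p = 0.0404 by limma, 0.0572 without the 2 libraries). Its call was lost in 9 of 15 other ways of processing. RCAN1, an inhibitor of calcineurin, fell from the PA 4- to the 8-cell stage by 4.41 (SE 0.96, adjusted p = 0.00547 by limma), from 22.9 to 0.0882 FPKM, a call lost in 4 of 15 other ways of processing (adjusted p up to 0.157). RCAN3 fell from the IVF 1- to the 8-cell stage by 4.72 (adjusted p = 0.0383 by limma, 0.0716 without the 2 libraries), a call lost in 7 of 15 other ways of processing.

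Other calls were of genes of store release, pumps and buffers. PLCD4, a phospholipase C (chr15:120626839-120688111, plus strand, overlapping CNOT9 and CFAP65), rose from the IVF 4- to the 8-cell stage by 3.85 (SE 0.96, adjusted p = 0.0154 by limma, 0.0674 without the 2 libraries). All of it came from 1 blastomere with 64.1 FPKM, and its sisters were listed at 0. The PLCD4 call at this step was lost in 6 of 15 other ways of processing. PRKCQ, a protein kinase C, reached 1 FPKM in 3 of 42 cells, with 11.9 FPKM in IVF 8-cell blastomere 2 and at most 0.0111 FPKM in its sisters. CALR (calreticulin), which binds calcium within the store, rose from the PA 4- to the 8-cell stage by 4.21 (SE 1.15, adjusted p = 0.0232 by limma), a call lost in 3 of 15 other ways of processing (adjusted p up to 0.141). Here all 3 blastomeres were high, with 57.1, 164 and 85.9 FPKM. ATP2B1, a calcium pump of the plasma membrane, fell from the 1- to the 8-cell stage, with log2 differences of -3.97 in IVF and -3.91 in PA (adjusted p = 0.0302 and 0.0338 by limma, 0.0575 and 0.0627 without the 2 libraries). These calls were lost in 5 of 15 (IVF) and 6 of 15 (PA) other ways of processing. MCUB, a subunit of the mitochondrial calcium uniporter, fell from the PA 4- to the 8-cell stage by 2.67 (adjusted p = 0.0488 by limma, 0.0567 without the 2 libraries). Its call was lost in 9 of 15 other ways of processing.

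PLCZ1, the sperm's own trigger, was listed at no more than 1.51 FPKM in any cell but one, PA 8-cell-1-2, with 43.7 FPKM (1772 reads), a group without sperm. Calmodulin, the calcium sensor that acts through the kinases and calcineurin, was present at every stage. CALM2 averaged 59.6, 58.6, 96.8 and 48.9 FPKM by stage in IVF and 50.1, 43.1, 108 and 41.5 FPKM in PA, and was not called in any comparison. In the step from the 4- to the 8-cell stage 2 of 42 genes of the wider list that passed the filter outside the 8-cell groups were called by limma's interaction test of IVF and PA (4.76%, beside 2.13% of all such genes), with 1 embryo a method at the 8-cell stage. PLCD4 was higher in the IVF step by 6.24 (SE 1.35, adjusted p = 0.0172, 0.0582 without the 2 libraries) and RCAN1 by 5.23 (SE 1.36, adjusted p = 0.0460, 0.106 without the 2 libraries). Of 18 other ways of processing, 5 ended the call of PLCD4 and 12 that of RCAN1. PPP3CA had a difference of -5.03, described without a test as above. The levels of the IVF 8-cell embryo came from 1 blastomere each, with 64.1 FPKM of PLCD4 and 81.1 FPKM of RCAN1.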

How the data were processed

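The authors amplified cDNA of single cells from transcripts with or without polyA tails, sequenced it as paired ends, aligned the reads with HISAT2 to Sscrofa11.1, ran StringTie and HTSeq for transcripts and counts, and deposited FPKM per gene and cell. Versions, strand and annotation release are not given in the sources used here, and the extraction protocol in the labels describes another procedure. Of genes above 0, 14662 of 14692 gave whole reads (99.98% of low values within 0.002). The members and lists were chosen with earlier results of these data known.

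In limma 3.58.1, 8116 genes passed (FPKM 1 or more, 3 cells or more) and were tested (R 4.3.3, mean-variance trend) on log2(embryo mean FPKM + 1), with 20 embryos of 8 groups in 1 fit. Calls needed a Benjamini-Hochberg adjusted p below 0.05 with a change of 2-fold or more. Embryos are numbered in the labels, and nothing says that they came from separate fertilizations, so p-values measure the spread between these embryos. Genes named beyond the members are those called, up to 3 a list and comparison, and the most similar by Pearson's r (5 for TRPM7, of which 1 is not reported here, and 2 for others). CALM2, TRPM6, IZUMO1R, PLCZ1, STIM2, ITPR3, RYR2 and PPP3CB were named after their values were seen. The fit was tested on simulated data with known changes. Other steps used Python 3.11.15, numpy 2.4.6, pandas 2.3.3, scipy 1.17.1 and matplotlib 3.10.9. The alternatives changed the pseudocount, filter, scaling, averaging, samples and block.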

Additional observations from a re-analysis of the deposited data

Results flagged for a closer look

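Cells that stood apart from the others of their group were found in 12 of 25 sets of a member and a group of 4 to 10 cells, by Dixon's gap ratio. Chance flags about 1 in 20 where values are normal and independent. The ratio was taken on FPKM, which are skewed in many of these sets, and sister cells are not independent. The chance rate here is therefore unknown and may be higher. The share over all tested genes is not given, so the count describes the members only. For ITPR1 these were IVF 2-cell-1-2 (7.42 FPKM), IVF 4-cell-3-3 (2.40), PA 2-cell-1-2 (4.93) and PA 4-cell-1-4 (4.5 FPKM), the last 2 being near repeats of each other. For ORAI1 they were IVF 4-cell-3-3 (1.49 FPKM), PA 2-cell-1-1 (1.87) and PA 4-cell-2-4 (7.75 FPKM). TRPM7 stood out in PA 4-cell-2-1 (1.36 FPKM), which nearly repeats PA 2-cell-2-1. CAMK2D did so in PA 2-cell-1-1 (32.3 FPKM) and CAMK2G in PA 2-cell-3-2 (6.45 FPKM). ITPR2 had its single high cell in IVF 2-cell-3-1 (2.28 FPKM), and ATP2A2 stood out in PA 4-cell-1-3 (22.3 FPKM).

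The steps of IVF and PA from the 4- to the 8-cell stage passed limma's interaction test in PLCD4 (log2 difference 6.24) and RCAN1 (5.23). Both calls were lost without PA 4-cell-1-4 and 2-1. Of 18 other ways of processing, 5 ended the call of PLCD4 and 12 that of RCAN1. Each method had 1 embryo at the 8-cell stage, assumed to vary like those of the other groups. The difference of PPP3CA was -5.03 and is given without a test, since the gene passed the filter on low values only through its PA 8-cell cells. For TRPM7 this difference was -5.64 and was not tested, since the course of the gene was part of its choice.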

How the results depend on the processing

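Results were computed again under each alternative, and the cause of a change was not tested. Of 252 recomputed counts of called members, 234 stayed and 18 changed. In IVF 8-cell against 1-cell, the 1 member called (ATP2A2) became 0 with a pseudocount of 5, median-ratio scaling, only the groups compared, or without PA 4-cell-1-4 and 2-1 or PA 2-cell-1-2 and 2-1 (the latter chosen after seeing the data), and 0 to 1 when leaving out each embryo. With the embryo number as a replicate block it also became 0 (log2 difference -3.64, adjusted p = 0.0687 by limma). Deviations of same-numbered embryos correlated with r of -0.041 to 0.355 (45 pairs, median 0.0083) and those of others with -0.266 to 0.113 (90 pairs, median -0.0026). The 3 same-numbered pairs of PA 2- and 4-cell embryos had r of 0.355, 0.282 and 0.10, and -0.0131, 0.0086 and -0.0056 without PA 4-cell-1-4 and 2-1. With the block, that comparison had 0 members and 33 of all genes called, beside 0 and 32 without it. From 0, the count became 1 in IVF 4-cell against 2-cell with blastomeres as samples (ORAI1) and in IVF 8-cell against 4-cell with a pseudocount of 0.1 (ATP2A2, -5.34). In IVF against PA at the 4-cell stage it became 1 (TRPM7) with a pseudocount of 0.1, no filter, an FPKM of at least 5 in 3 cells, median-ratio scaling, blastomeres as samples or without PA 4-cell-1-4 and 2-1, and was 0 to 1 when leaving out each embryo (1 without IVF 4-cell embryo 1 or 2). These calls of TRPM7, 8 of the 18 changed counts, are no support for it, since its PA 4-cell level was part of its choice.

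Differences of IVF over PA that were not called changed sign in places. Under median-ratio scaling these were TRPM7 (-0.19) and ATP2A2 (-0.18) at the 2-cell stage, and ATP2A2 in PA 8-cell against 1-cell was 0.77. At the 2-cell stage TRPM7 was -0.28 without PA 2-cell-1-2 and 2-1. At the 4-cell stage ATP2A2 was 0.018 with log2 values averaged over blastomeres, 0.050 with blastomeres as samples and 0.19 without PA 4-cell-1-4 and 2-1, and ITPR1 was 0.23 without them. When leaving out each embryo, ORAI1 at the 1-cell stage ranged from -0.96 to 0.56. At the 2-cell stage the ranges were -0.16 to 1.01 (ITPR1), -0.080 to 0.61 (TRPM7), -0.17 to 1.68 (CAMK2D) and -0.16 to 0.72 (ATP2A2). At the 4-cell stage they were -0.83 to 0.019 (ITPR1), -1.98 to 0.32 (CAMK2D), -0.64 to 0.14 (ORAI1) and -0.70 to 0.70 (ATP2A2). Of 50 other member differences between stages or in steps, all with a p of 0.05 or more, 21 changed sign under some alternative and none was called.

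Called genes of the wider lists, without PRKCQ and PPP3CA, kept their call in 276 recomputed values and lost it in 105, and none changed sign. The fit of only the groups compared ended all calls from the IVF 4- to the 8-cell stage. The number of all genes called moved by over 1.5 times: for IVF 4-cell against 2-cell 90, with 0 to 729 under the alternatives, for PA 4-cell against 2-cell 32 (1 to 601), for the methods at the 4-cell stage 45 (0 to 432) and for the interaction from the 4- to the 8-cell stage 232 (50 to 1098). IVF 8-cell against 4-cell gave 566 (0 to 1156), IVF 8-cell against 1-cell 1157 (757 to 1869), PA 8-cell against 4-cell 811 (97 to 1532) and PA 8-cell against 1-cell 1119 (784 to 1839). From the 1- to the 2-cell stage IVF gave 0 (0 to 17) and PA 8 (0 to 56). The methods gave 4 (0 to 13) at the 1-cell and 0 (0 to 17) at the 2-cell stage. The interaction gave 0 from the 1- to the 2-cell (0 to 12) and from the 2- to the 4-cell stage (0 to 72).

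Limits are the single 8-cell embryo of each method, FPKM that are scaled within cells only, amplified reads without molecular identifiers, and values of low members that rest on few reads.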

Other observations

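Reads of genes that were abundant in a single embryo were also found at low numbers in other cells of the same method. Genes with at least 5000 reads in 1 cell and at most 50 reads in any cell outside its embryo numbered 22 for IVF and 27 for PA. Of the other cells of the same method, counted over these genes, 48.5% (IVF) and 63.7% (PA) held at least 1 read, against 4.11% and 8.47% of cells of the other method. CD9, with 12190 reads in IVF 8-cell-1-2, had 1 to 4 reads in the IVF cells of other embryos that were not at 0 and none in PA cells. The source of these reads was not tested.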
